A study of Mus musculus with 3 samples.

Results

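The genes described here are 38 lysosomal hydrolases, their activator proteins and lysosomal membrane proteins, matched by symbol among the 55536 annotated mouse genes of the tables. They were chosen for their function, with earlier results of these data known. The lysosome is the acidic organelle in which cells digest macromolecules taken up from outside or delivered by autophagy. Its soluble hydrolases each cut a defined bond in a lipid, glycan, glycosaminoglycan or protein, some need small activator proteins that lift the lipid substrate out of a membrane, and heavily glycosylated membrane proteins line the organelle and carry cholesterol and ions across it. Macrophages, which clear particles and dead cells by phagocytosis, are known for a large lysosomal compartment, and the loss of many of these genes causes a lysosomal storage disease.

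The RNA came from primary macrophages grown from bone marrow of C57BL/6J mice. The cells had been exposed to Lipid A, the membrane anchor of bacterial lipopolysaccharide and the ligand of Toll-like receptor 4, at 100 ng/ml for 12 h, kept without it for 12 h, and exposed again at 100 ng/ml for 30 min. Total RNA of the cytosolic fraction was depleted of ribosomal RNA and sequenced from 1 µg in 3 biological replicates of this 1 group, which share a donor entry and give neither sex nor age, so an SD or p-value reflects the spread of these samples alone, and that spread may be technical. Untreated cells, other times and the nuclear fraction were not analysed here, so levels are described with no change caused by Lipid A, and no background from control samples can be set beside them.

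Annotated genes received 28759407, 54709008 and 49878183 expected counts (reads assigned to a gene by model) in replicates 1, 2 and 3. Levels are in TPM, a gene's share of all transcripts after division by length, as mean ± SD over n = 3 libraries, and a gene counted as detected at 1 TPM or more in every library. All 8 macrophage markers examined, among them Csf1r and Adgre1, were detected, with a summed level of 1142 to 1411 TPM per library. Of 40 markers of neutrophils, T and NK cells, B cells, dendritic cells, mast cells, erythroid cells, stromal cells and osteoclasts, 37 were not detected, 7 were at 0 in every library, and the sum was 17.3 to 25.5 TPM. The 3 detected ones were S100a8, S100a9 and Acp5, while the neutrophil gene Ly6g and the osteoclast gene Calcr were at 0 in every library. In bulk RNA, fewer cells of a type and less RNA per cell cannot be told apart.

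Of the 38 genes, 37 were detected, 32 reached 10 TPM in every library, 12 reached 100 TPM and 3 reached 1000 TPM. Nuclear protein-coding genes held 29.1% ± 1.08 of the TPM of annotated genes, and the 38 genes held 4.36%, 3.95% and 4.15% of that protein-coding share in replicates 1, 2 and 3. Psap, Lyz2, Gpnmb and Grn alone held 72.1% ± 0.911 of the summed TPM of the 38 genes. Those 4 genes ranked 8, 9, 14 and 29 among 22015 nuclear protein-coding genes. The median gene of the set had 42.8 TPM, beside 8.26 TPM for the 9031 other detected nuclear protein-coding genes, and on the log2(TPM + 1) scale the medians differed by 2.28, 1.99 and 2.30 in replicates 1, 2 and 3.

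**Figure D1:**
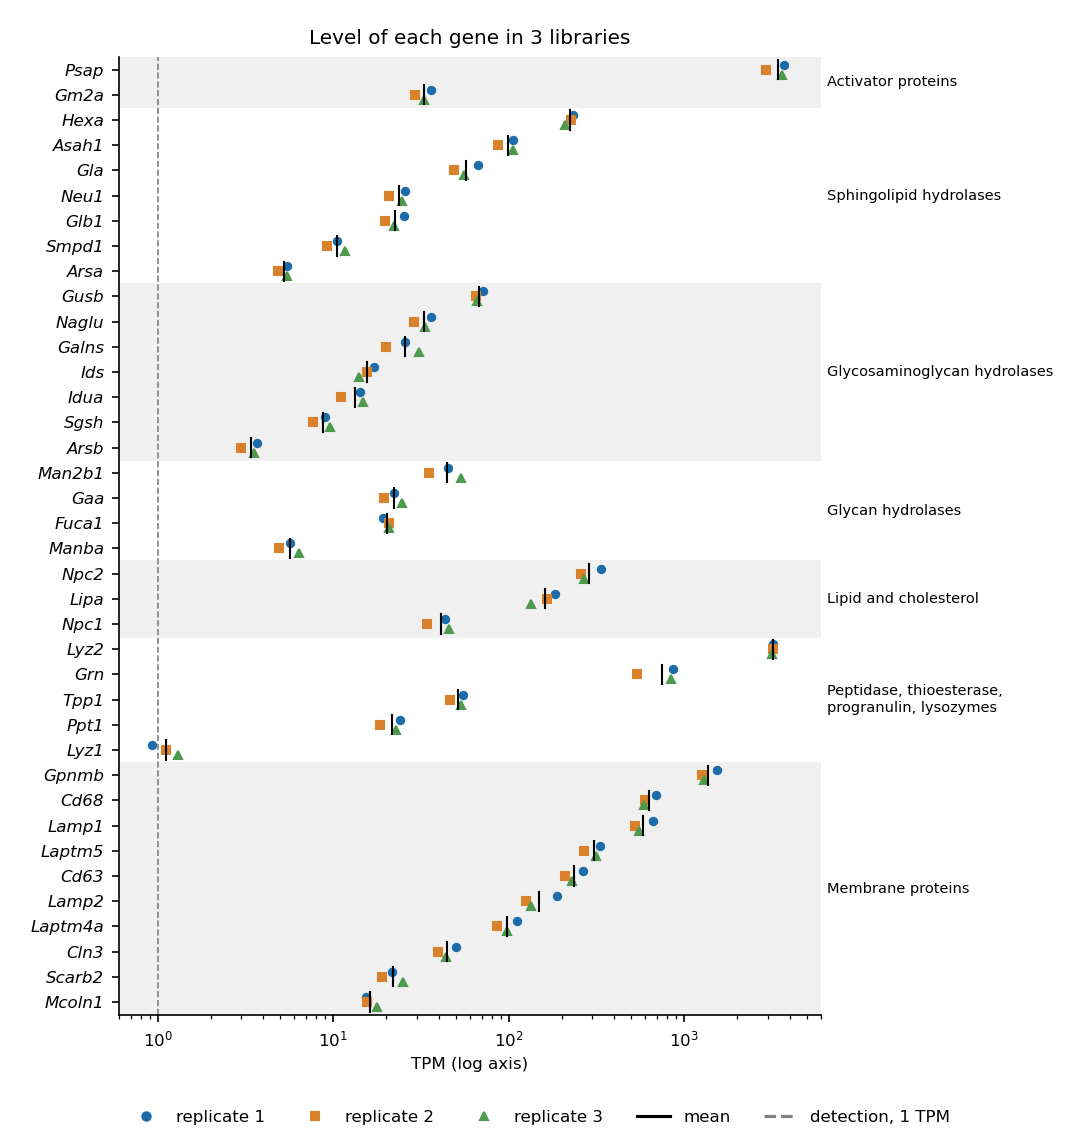
TPM (log axis) of each of the 38 genes in replicates 1, 2 and 3 (symbols) with their mean (black bar), grouped by role. Levels run from 1.12 TPM for Lyz1, whose replicate 1 lies left of the dashed line at 1 TPM, to 3411 TPM for Psap. The replicate 2 symbol lies lowest for 30 of the 38 genes, beside 3897 of 9068 detected nuclear protein-coding genes. On TPM rescaled over nuclear protein-coding genes alone, these numbers were 26 and 2466.

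The sphingolipid activators stood far apart from each other. Psap encodes prosaposin, the precursor that is cut into the saposins, which present sphingolipids to their hydrolases. It had 3711, 2921 and 3600 TPM (3411 ± 428), the highest mean of the 38 genes, with replicate 2 the lowest. Gm2a encodes the activator that presents ganglioside GM2 to β-hexosaminidase A, and it had 36.1, 29.2 and 33.0 TPM (32.8 ± 3.42). Within each library Psap exceeded Gm2a by 6.65, 6.59 and 6.73 on the log2(TPM + 1) scale.

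Among the 7 sphingolipid hydrolases, levels spanned from 5.26 to 223 TPM with a median of 23.7 TPM, and all 7 were detected. Hexa, the α subunit of β-hexosaminidase, was the highest with 233, 225 and 210 TPM (223 ± 11.5), and no library stood apart. Gm2a lay below Hexa in all libraries, by -2.73 ± 0.15 on the log2(TPM + 1) scale.

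Asah1, acid ceramidase, followed with 106, 87.2 and 106 TPM. Gla, α-galactosidase A, had 67.0, 48.8 and 55.9 TPM, with replicate 1 the highest. Neu1, the lysosomal sialidase, and Glb1, β-galactosidase, had means of 23.7 ± 2.65 and 22.4 ± 2.86 TPM, and their replicates overlapped. Smpd1, acid sphingomyelinase, had 10.6, 9.26 and 11.6 TPM. Arsa, arylsulfatase A, which removes the sulfate from sulfatide, was the lowest at 5.48, 4.86 and 5.43 TPM.

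The 7 glycosaminoglycan hydrolases, which take apart heparan, dermatan, keratan and chondroitin chains, were all detected, with a median of 15.5 TPM. The difference of their median from that of the sphingolipid hydrolases was -0.57, -0.38 and -0.70 on the log2(TPM + 1) scale in replicates 1, 2 and 3. With list means in place of medians it was -0.92 ± 0.03. Gusb, β-glucuronidase, was the highest with 70.9, 64.7 and 66.3 TPM (67.3 ± 3.24), and Arsb, arylsulfatase B, the lowest with 3.66, 3.00 and 3.55 TPM.

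Between them, Naglu, α-N-acetylglucosaminidase, had 36.1, 29.0 and 33.5 TPM. Galns, a sulfatase of keratan and chondroitin chains, had 25.5, 20.1 and 30.9 TPM, a spread in which replicate 3 lay highest. Of the enzymes that act in sequence on iduronate residues, the sulfatase Ids had 17.0, 15.6 and 14.0 TPM and the iduronidase Idua 14.1, 11.1 and 14.8 TPM. Ids was higher in replicates 1 and 2 and lower in replicate 3, so their order was not fixed by these data. Sgsh, heparan N-sulfatase, had 8.93, 7.69 and 9.64 TPM and lay below Naglu by 1.90, 1.79 and 1.70 on the log2(TPM + 1) scale.

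The 4 glycosidases of glycoproteins and glycogen were led by Man2b1, lysosomal α-mannosidase, with 45.1, 35.1 and 53.2 TPM, in which replicate 3 lay highest and replicate 2 lowest. Manba, β-mannosidase, had 5.69, 4.92 and 6.36 TPM and never reached the range of Man2b1. Gaa, the acid α-glucosidase that degrades glycogen, had 22.3, 19.6 and 24.6 TPM, and Fuca1, α-L-fucosidase, 19.3, 20.9 and 20.8 TPM.

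Of the genes of lysosomal lipid release, Lipa and Npc2 lay above the median of the set and Npc1 just below it. Lipa, the acid lipase that frees cholesterol and fatty acids from lipoprotein lipids, had 183, 165 and 135 TPM (161 ± 24.3), with replicate 3 the lowest. Npc2, the luminal protein that hands the freed cholesterol to the membrane protein Npc1, had 334, 260 and 267 TPM. Npc1 had 43.4, 34.1 and 45.6 TPM. Npc2 exceeded its partner in every library, by a mean of 2.78 ± 0.22 on the log2(TPM + 1) scale, which is 6.86-fold on that scale. The comparison is of whole genes, and the TPM of Npc1 includes a retained-intron transcript described below.

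Tpp1, a tripeptidyl peptidase, had 54.9, 46.0 and 53.1 TPM, and Ppt1, the thioesterase that removes palmitate from proteins, had 23.9, 18.5 and 22.8 TPM. Grn, progranulin, which is secreted and also processed to granulins in the lysosome, varied most of the 38 genes, with 862, 540 and 836 TPM (746 ± 179, a coefficient of variation of 23.9%). Replicates 1 and 3 lay close together and replicate 2 below them. Lyz2, the lysozyme of myeloid cells, varied least, with 3204, 3199 and 3179 TPM (3194 ± 13.1, a coefficient of variation of 0.411%). After TPM was rescaled over nuclear protein-coding genes alone, the coefficient of variation was 20.9% for Grn, still the highest, and 3.82% for Lyz2, while Gusb, at 2.44%, then had the lowest.

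Lyz1, known as the lysozyme of Paneth cells in the intestine, was the only gene of the set that was not detected, at 0.93, 1.12 and 1.30 TPM. It lay 10.6 ± 0.13 below Lyz2 on the log2(TPM + 1) scale, and the ratio of mean TPM was 2860. The genes are neighbours on chromosome 10, with 5475 bases between them in mm10, and 22 of their 447 coding bases differ, which leaves 95.1% identical and runs of up to 118 coding bases with no difference. The start of each coding sequence is shown to mark where bases differ. Reads that cover no differing base can be shared between the genes. Capitals mark the differing bases, 7 of the first 90. Sequences are from GENCODE M21, on the minus strand of mm10, and all of each lies in the first exon, at chr10:117292749-117292838 for Lyz1 and chr10:117282153-117282242 for Lyz2.
Lyz1: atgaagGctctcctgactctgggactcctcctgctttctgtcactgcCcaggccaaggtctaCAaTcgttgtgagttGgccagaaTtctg
Lyz2: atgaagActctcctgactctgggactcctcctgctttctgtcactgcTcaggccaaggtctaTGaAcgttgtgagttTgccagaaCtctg
Lyz1 received 46, 116 and 114 expected counts, beside 166440, 349814 and 293975 for Lyz2, and how many of the Lyz1 counts came from Lyz2 RNA was not tested.

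The 10 membrane proteins had the highest median of the roles with more than 3 genes, 192 TPM beside 29.1 TPM for the 28 other genes. The difference of the medians was 2.83, 2.66 and 2.42 on the log2(TPM + 1) scale in replicates 1, 2 and 3, and 1.86 ± 0.06 with list means. Gpnmb, a glycoprotein of lysosomes and melanosomes, led with 1540, 1268 and 1297 TPM (1368 ± 150). Cd68, the macrophage member of the LAMP family, had 691, 599 and 592 TPM, and the tetraspanin Cd63 had 265, 208 and 230 TPM. Cd63 thus lay below Cd68 by -1.42 ± 0.09 on the log2(TPM + 1) scale.

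The main structural glycoproteins of the lysosomal membrane differed in level. Lamp1 had 662, 526 and 554 TPM and Lamp2 187, 125 and 134 TPM, with replicate 1 the highest for both. Lamp1 exceeded Lamp2 by 1.82, 2.07 and 2.04 on the log2(TPM + 1) scale. Laptm5, a lysosomal membrane protein of blood cells, had 332, 270 and 315 TPM and exceeded its broadly expressed relative Laptm4a, at 111, 85.9 and 97.8 TPM, by 1.63 ± 0.05.

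The lowest membrane proteins were Cln3, whose loss causes juvenile Batten disease, with 50.2, 39.4 and 44.1 TPM, Scarb2 (LIMP-2), the receptor that carries glucocerebrosidase to the lysosome, with 21.7, 19.0 and 24.8 TPM, and Mcoln1, the calcium release channel TRPML1, with 15.4, 15.5 and 17.8 TPM. Scarb2 and Mcoln1 were each below the lowest value of every other membrane protein of the set.

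The pair differences above belong to 13 pairs of partners or relatives compared within libraries. In 12 of the 13 the sign was the same in 3 of 3 libraries and the mean exceeded 3 SD, which was the rule for a call. The share of all gene pairs that pass this rule is not given here, so the count cannot be read as particular to partners or relatives. Each of the 12 had p = 0.25 in a two-sided exact sign-flip permutation test, the smallest p that 3 libraries allow, and 0.271 after Benjamini-Hochberg adjustment over the 13 pairs. Ids against Idua was not called, at 0.21 ± 0.27 on the log2(TPM + 1) scale (exact p = 0.50). The smallest called difference was Arsb below Arsa by -0.51 ± 0.04, at the level of whole genes. It did not hold for coding transcripts: Arsa-202 and Arsa-204 had 1.63 and 0.16 TPM, beside 3.39 TPM for Arsb-201. Most Arsa TPM lay in Arsa-201, annotated as a retained intron, at 3.47 TPM. Tpp1 exceeded Ppt1 by 1.21 ± 0.05 and Man2b1 exceeded Manba by 2.76 ± 0.14.

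**Figure D2:**
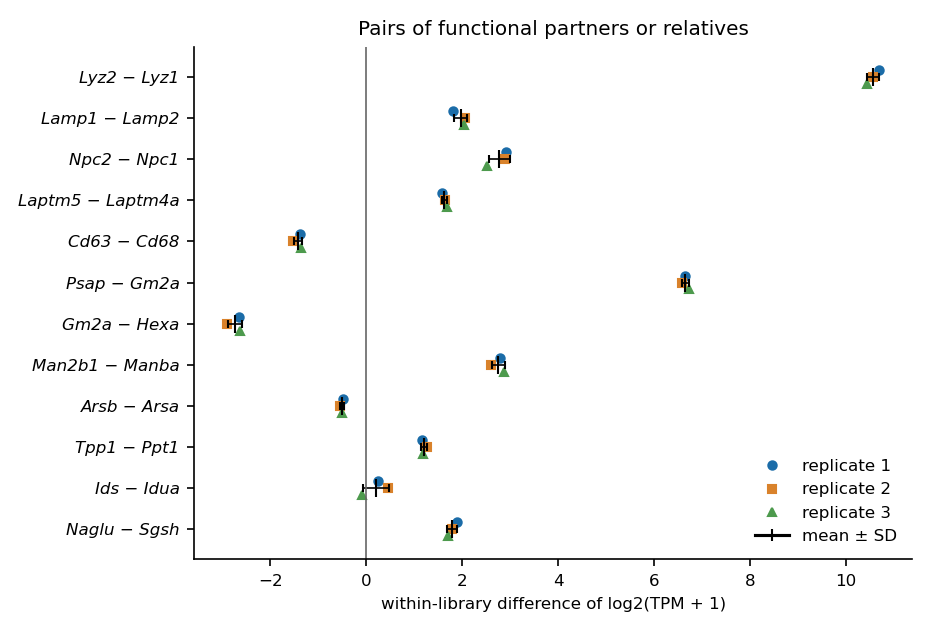
Within-library difference of log2(TPM + 1) for the 12 pairs in which both genes are among the 38, in replicates 1, 2 and 3 (symbols), with the mean and SD (black). Ids − Idua is the pair whose replicates fall on either side of 0, and Lyz2 − Lyz1 is the largest, at 10.6.

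In the order of mean TPM, 11 of the 37 neighbouring pairs were separated by the same rule (a shared sign and a mean log2 ratio above 3 SD) and 26 were not. Psap and Lyz2 at the top were not separated, at a log2 ratio of 0.09 ± 0.19, while Lyz2 lay above Gpnmb by 1.23 ± 0.15. The run from Gusb, at 67.3 TPM, down to Fuca1, at 20.3 TPM, held 15 genes with no separated neighbours. Below it, Fuca1 and Mcoln1, Idua and Smpd1, Smpd1 and Sgsh, Sgsh and Manba, Arsa and Arsb, and Arsb and Lyz1 were separated.

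Other parts of the lysosome were expressed around these genes. All 13 further lysosomal enzymes examined were detected, among them Ctsa (284 ± 29.7 TPM), the carboxypeptidase that protects Neu1 and Glb1, and Acp2 (150 ± 22.3), an acid phosphatase, with Galc at 11.4 ± 1.10 and Hgsnat at 11.9 ± 3.80 TPM the lowest. Of 7 genes that tag and deliver hydrolases, 6 were detected. The cation-dependent mannose 6-phosphate receptor M6pr had 102 ± 3.22 TPM and Sumf1, which activates the sulfatases of the set, had 30.8 ± 3.74 TPM. Nagpa followed at 16.5 ± 1.38 TPM, with Igf2r, the cation-independent receptor, at 9.52 ± 1.56 and Gnptg at 6.79 ± 0.79 the lowest detected, and Sort1 was at 0.97, 1.21 and 1.14 TPM.

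All 13 transporters and channels of the lysosomal membrane examined were detected. The peptide transporter Slc15a3 (195 ± 24.0 TPM), the metal transporter Slc11a1 (149 ± 21.6) and the chloride exchanger Clcn7 (78.9 ± 9.04) were the highest, while Mcoln3 (5.39 ± 1.97) and Mfsd8 (2.68 ± 0.17) were the lowest. The MiT/TFE transcription factors, which are known to bind promoters of lysosomal genes, were all detected, at means from 9.22 to 30.2 TPM. Tfe3 had 30.8, 29.9 and 29.8 TPM, Mitf 16.3, 13.9 and 15.1, Tfeb 9.71, 9.30 and 10.6, and Tfec 9.22 ± 1.83 TPM. The values of Tfe3 lay above those of the other 3 factors in every library.

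The median of the 38 genes lay below that of the 12 cathepsins and legumain, the lysosomal proteases, by -2.47 ± 0.06 on the log2(TPM + 1) scale, and by -1.31 ± 0.06 with list means. Ctsd (2798 ± 236 TPM), Ctsb (1963 ± 276) and Ctss (1193 ± 225) led those proteases, and Psap and Lyz2 had higher means than each of them. The median also lay below that of the 17 subunits of the vacuolar proton pump, which acidifies the lysosome, by -0.82, -1.08 and -0.67 in replicates 1, 2 and 3. That difference was -0.10 ± 0.11 with list means, so it rested on the choice of the median.

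Replicates differed by more than counting noise for most genes. Rounded counts were tested for homogeneity by chi-square, with library sizes scaled by the trimmed mean of M values (TMM), and the test called 36 of the 38 genes at an adjusted p under 0.05, beside 66.2% of all 13410 genes tested. The exceptions were Arsa (adjusted p = 0.374 over all genes) and Lyz1 (adjusted p = 0.189). Mean expected counts of the 38 ran from 92.1 for Lyz1 to 615544 for Psap. The test calls small differences more readily at high counts, and the genes compared were not matched for counts. The spread was small in size: the median biological coefficient of variation, estimated by edgeR with an intercept alone, was 0.125 for the 38 genes and 0.134 for 12738 genes tested.

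No gene of the set differed by more than 1.5-fold between a library and the mean of the other 2 on TMM-scaled counts, and on TPM only Grn did, lower in replicate 2. The share of all genes past that bound on TPM is not given here. On TMM-scaled counts, 4.10% of all genes tested were that much higher and 6.04% lower in replicate 1. The values were 3.61% higher and 8.52% lower in replicate 2, and 8.03% higher and 5.44% lower in replicate 3. Within that bound the genes leaned the same way. Of the 38, 31 were higher in replicate 1 than in the others and 31 were lower in replicate 2, whereas 46.3% of all genes tested were higher in replicate 1 and 55.1% higher in replicate 2.

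The median log2 ratio of the 38 genes was 0.12 in replicate 1, -0.16 in replicate 2 and 0.02 in replicate 3, beside -0.02, 0.03 and -0.02 for all genes tested. The size of the lean in replicate 2 depended on the values used: the median was -0.26 on TPM, beside -0.08 for all genes, and -0.04 in the second deposited quantification of the same libraries, beside 0.08 for all genes. Grn had the lowest single ratio, -0.53 in replicate 2, and Lamp2 the highest, 0.45 in replicate 1. Man2b1 and Galns shared a pattern, at -0.42 and -0.39 in replicate 2 and 0.36 and 0.40 in replicate 3. Lipa ran the other way, at 0.15 in replicate 2 and -0.41 in replicate 3.

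Cathepsins and legumain leaned like the set, with median ratios of 0.14, -0.23 and 0.08, while the proton pump subunits had 0.06, 0.07 and -0.16. The summed TPM of the 8 macrophage markers was 1303, 1142 and 1411 in replicates 1, 2 and 3, so it too was lowest in replicate 2. Single markers were mixed: 6 of the 8 were lowest in replicate 2 on TPM and 5 on rescaled TPM. Cd14 was highest in replicate 2, at 85.2, 132 and 73.4 TPM. The lean of the 38 genes is on TMM-scaled counts, and the part of the markers in it was not tested. The markers of other cell types summed to 17.3, 18.4 and 25.5 TPM. Replicate 1 was also the shallowest library.

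**Figure D3:**
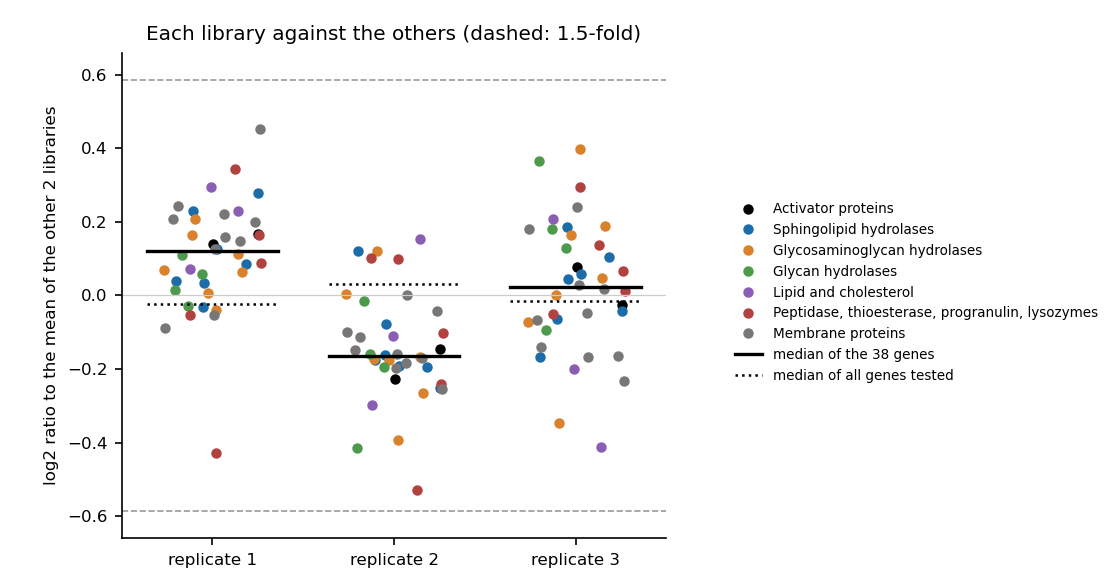
The log2 ratio of each of the 38 genes in a library to the mean of the other libraries, on TMM-scaled counts, coloured by role, with the median of the 38 genes (solid) and of all genes tested (dotted). All points lie within the dashed lines at 1.5-fold, and the median of the 38 genes is 0.12, -0.16 and 0.02 in replicates 1, 2 and 3.

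The transcript tables divide each gene's TPM among 192 annotated transcripts of the 38 genes. The leading transcript was protein-coding for 37 of 38 genes and held at least 90% of the gene's TPM for 25. Protein-coding transcripts held a median of 98.9% of a gene's TPM, and at least 90% for 33 genes. At least 10% fell to retained-intron transcripts for 2 genes, Arsa and Npc1. Shares among overlapping transcripts are model estimates, so the deposited tables from the second quantification of the same libraries are given beside the first.

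**Figure D4:**
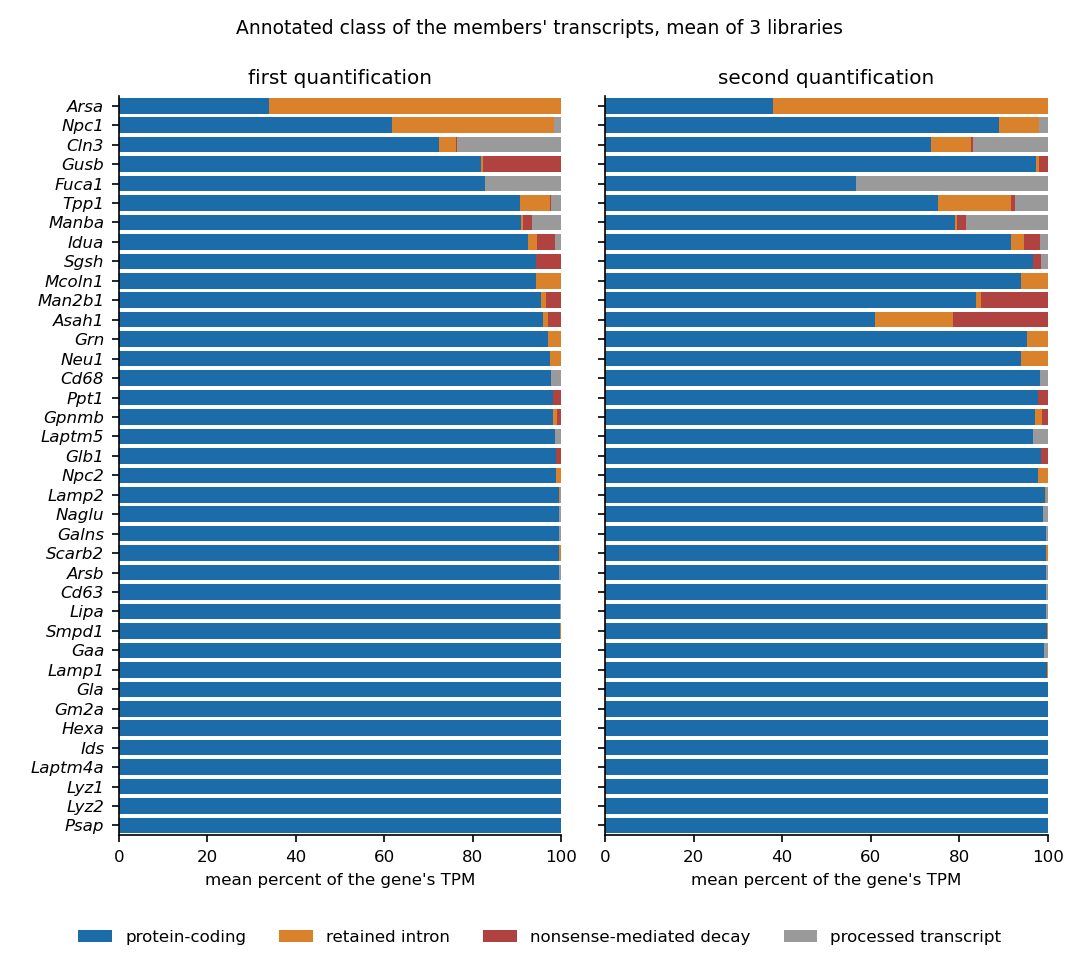
Mean percent of each gene's TPM in transcripts annotated as protein-coding, retained intron, nonsense-mediated decay and processed transcript, in the first (left) and the second (right) quantification, over 3 libraries. Arsa stands out on both sides with most TPM in a retained-intron transcript, at 65.9% in the first quantification, while Npc1, Asah1, Gusb and Fuca1 differ between the sides.

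Arsa was the gene whose leading transcript was not protein-coding. Arsa-201, annotated as a retained intron, held 69.4%, 64.0% and 64.5% of its TPM, and 67.6%, 58.9% and 59.6% in the second quantification. The coding Arsa-202 held 28.1%, 32.1% and 32.8%. These shares rest on 450, 770 and 731 expected counts for Arsa-201, and on 240, 509 and 491 for Arsa-202. Arsa-201 has 7 exons beside 9 in Arsa-202, starts further downstream and keeps a 77-base intron that Arsa-202 removes. The intron is shown in capitals between 12 exonic bases on either side, at chr15:89474698-89474798 of mm10 on the minus strand, because it is the sequence that Arsa-202 lacks.
Arsa-201: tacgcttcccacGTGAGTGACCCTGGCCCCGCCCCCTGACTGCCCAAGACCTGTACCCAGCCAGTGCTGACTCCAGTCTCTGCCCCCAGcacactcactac
The intron begins with GT and ends with AG. Antisense gene C230037L18Rik overlaps Arsa by 1190 bases, at 1.25% of its counts.

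Npc1 gave a different answer in the 2 quantifications. Its retained-intron transcript Npc1-206 held 36.9%, 37.3% and 35.3% of TPM in the first and 12.0%, 7.6% and 5.4% in the second. Asah1 went the other way, since its coding transcripts held 95.9% in the first and 61.1% in the second. For Gusb the nonsense-mediated decay transcript Gusb-206 held a mean of 17.5% ± 3.71 of TPM in the first and 1.86% ± 1.40 in the second, and was highest in replicate 3 in both. The Fuca1 processed transcript Fuca1-205, of 401 bases, was at 0%, 23.8% and 19.7% in the first, from 0, 91 and 64 expected counts, and at 26.2%, 44.7% and 34.6% in the second. Cln3 had 19 annotated transcripts and none held more than 21.4% in a library of the first. There Cln3-203 was ahead in replicate 1, with 21.1%, 18.0% and 19.2%, and Cln3-204 in replicates 2 and 3, with 19.6% and 21.4%. In the second, Cln3-203 was ahead of Cln3-204 in every library, at 28.5%, 28.6% and 30.3% beside 1.36%, 1.68% and 1.56%.

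Lamp2 was divided almost evenly between transcripts that share 8 of 9 exons and differ in the last. That exon encodes the transmembrane segment and the short cytosolic tail, which defines the isoforms known as Lamp-2A, Lamp-2B and Lamp-2C. Lamp-2A is the receptor of chaperone-mediated autophagy. Their last 36 coding bases before the stop codon are shown, from GENCODE M21 on the minus strand of mm10, because the tail is what the transcripts do not share. They lie at chrX:38405435-38405470 for Lamp2-201 (isoform A), chrX:38421715-38421750 for Lamp2-202 (isoform B) and chrX:38402142-38402177 for Lamp2-203 (isoform C).
Lamp2-201: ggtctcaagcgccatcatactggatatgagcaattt
Lamp2-202: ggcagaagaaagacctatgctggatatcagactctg
Lamp2-203: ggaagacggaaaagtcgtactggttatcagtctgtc
Between Lamp2-201 and Lamp2-202, 16 of the 36 bases are the same.

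Lamp2-201 held 51.6%, 48.7% and 48.3% of Lamp2 TPM, and Lamp2-202 held 47.6%, 50.5% and 50.5%. Lamp2-203 held 0.35%, 0.47% and 0.35%. The isoform A transcript was thus ahead in replicate 1 and the isoform B transcript in replicates 2 and 3. In the second quantification Lamp2-201 was ahead in all libraries, at 55.5%, 53.3% and 52.9% beside 43.6%, 45.9% and 45.6%. Which of the 2 was the more abundant therefore depended on the quantification, while Lamp2-203 stayed below 0.5% in both.

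Psap was divided mainly between Psap-202 and Psap-203, of 2646 and 2564 bases, with 55.0%, 58.4% and 57.1% and with 42.7%, 38.9% and 40.3%. In the second quantification Psap-202 held 65.1% ± 3.03. Both omit a 9-base exon inside the saposin B region that is known to be alternatively spliced. Psap-205 carries it, and Psap-201 carries 6 other bases at the same place from a longer following exon. They are shown in capitals with 15 coding bases on either side, from GENCODE M21 on the plus strand of mm10, and the 9-base exon lies at chr10:60297537-60297545.
Psap-205: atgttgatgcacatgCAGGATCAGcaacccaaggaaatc
Psap-201: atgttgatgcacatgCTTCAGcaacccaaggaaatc
Psap-202: atgttgatgcacatgcaacccaaggaaatc
Psap-205 held 1.67%, 1.96% and 1.82% of Psap TPM, Psap-204, which also carries the 9 bases, 0.07%, 0.14% and 0.12%, and Psap-201 0.59%, 0.59% and 0.57%. The form without added bases was by far the main one in every library.

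Gaa was divided between Gaa-203 and Gaa-201, of 3633 and 3363 bases. Gaa-203 held 63.9%, 51.2% and 51.1%, and 76.5%, 68.8% and 65.2% in the second quantification. Gpnmb-203, of 2430 bases, held 11.0%, 10.2% and 12.9% of Gpnmb TPM, and 22.4% ± 2.60 in the second quantification.

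**Figure D5:**
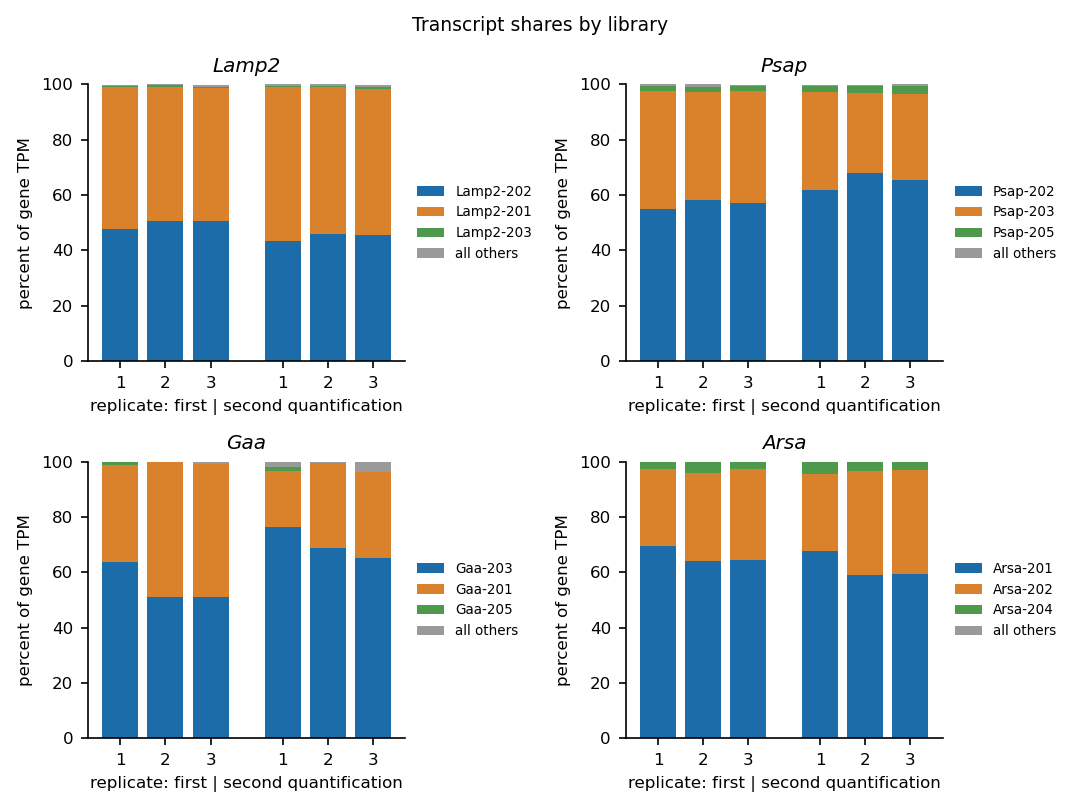
Percent of the gene's TPM in the 3 leading transcripts and in all others for Lamp2, Psap, Gaa and Arsa, in replicates 1, 2 and 3 of the first and of the second quantification. Lamp2-201 and Lamp2-202 each hold near 50% in every bar, and Arsa-201 holds 58.9% to 69.4% of Arsa.

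Gene levels depended less on the quantification than transcript shares did. After both were rescaled to nuclear protein-coding genes, the log2 ratio of the second to the first was past 0.25 in size for 4 of the 38 genes, beside 13.1% of 9068 detected nuclear protein-coding genes. These were Cln3 (0.44 ± 0.04), Fuca1 (0.42 ± 0.18), Npc1 (-0.33 ± 0.02) and Lyz1 (-0.28 ± 0.28). The median ratio of the 38 genes was -0.07.

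Of the 38 genes, 14 overlap another annotated gene, and 6 overlap one that held at least 10% as many expected counts. Galns shares 33222 bases with Gm20388 on the other strand, which held 73.5% as many counts. Cln3 overlaps Apobr (127%) and Ppt1 overlaps Cap1 (714%) on the other strand, by 876 and 129 bases. Glb1 shares 6172 bases with Tmppe on its own strand (20.9%). On the other strand, Idua shares 9342 with Dgkq (17.2%) and Arsb 2026 with Gm26527 (10.6%). Whether counting used strand is not given in the sources used here, and strand could not separate reads of Glb1 and Tmppe. Values of these 6 genes may therefore include reads of their partners.

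Promoter windows of 300 bases, 250 before and 50 after the start, were matched by symbol for 35 of the 38 genes in the RefSeq table of build GRCm38.p6. The table holds none for Asah1, Galns and Npc1. The palindromic E-box CACGTG, the core of the element bound by MiT/TFE factors, was searched on both strands. It was found for 9 of the 35 genes, 25.7%, beside 8.09% of all 27025 genes in the table (7.15% of its 32851 windows). With T before it or A after it (TCACGTG, which contains the core), it was found for the same 9 genes, beside 4.29% of all genes (3.77% of windows). With both (TCACGTGA) it was found for Cln3, Gla and Mcoln1, 8.57% of the 35, beside 1.12% of all genes (0.974% of windows). A match is a description of the letters and not of binding.

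The 9 genes held 15 such elements, and 10 of them began within 100 bases before the RefSeq start. Lamp1 held 4, beginning at -61, -45, -28 and -15 relative to the start, and they are shown with 12 bases on either side because no other gene of the set held as many. The windows lie on the plus strand at chr8:13159088-13159117, chr8:13159104-13159133, chr8:13159121-13159150 and chr8:13159134-13159163 of GRCm38.p6, in that order, and overlap. Capitals mark the E-box.
Lamp1: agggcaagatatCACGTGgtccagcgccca
Lamp1: tggtccagcgccCACGTGatgccgactggc
Lamp1: gatgccgactggCACGTGaccacatcacgt
Lamp1: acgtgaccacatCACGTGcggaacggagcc
The 3 genes with the extended form are shown likewise, at chr7:126583340-126583369 on the minus strand for Cln3, at chrX:134601182-134601211 and chrX:134601215-134601244 on the minus strand for Gla, and at chr8:3500462-3500491 on the plus strand for Mcoln1. These begin at -121 for Cln3, at -194 and -227 for Gla and at -45 for Mcoln1, relative to the RefSeq start. Gene bounds in GENCODE M21, used for the levels, can differ from it. There Cln3 spans 126571207 to 126585817 and Mcoln1 begins at 3500457, so the elements shown for Cln3 and Mcoln1 lie inside those bounds.
Cln3: cacgggtactgtCACGTGacccccaacctg
Gla: tgagatctcggtCACGTGagcaactctcgg
Gla: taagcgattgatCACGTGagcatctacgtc
Mcoln1: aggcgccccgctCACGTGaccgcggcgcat
The other genes with an E-box were Arsa, Gaa, Glb1, Naglu and Sgsh. The 9 genes ran from 5.26 to 581 TPM with a median of 22.4 TPM, and the 26 genes with a window and no E-box ran from 1.12 to 3411 TPM with a median of 59.3 TPM.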

How the data were processed

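Values came from tables deposited for 3 libraries of 1 group, with replicate numbers from the labels. The deposited tables give, per the file headers, each gene's or transcript's expected count and TPM. The tables of the second quantification, deposited for transcripts alone, give an estimated count and TPM. They were made on mm10 with GENCODE M21, per the text deposited with the libraries. Aligner, quantifier and use of strand: not given in the sources used here. Rows naming no annotated gene took 0.774%, 0.207% and 0.167% of counts and were left out. A count of 0 allows up to 3 counts.

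Pseudocount was 1. Rounded counts were scaled by TMM with edgeR 4.0.16 (R 4.3.3). With 1 group its quasi-likelihood test could not be run, and a chi-square test of homogeneity was used where the mean count was 10 or more. Python 3.11.15, pandas 2.3.3, numpy 2.4.6, scipy 1.17.1 and matplotlib 3.10.9 did the rest. Scripts were tested on simulated data. The members and lists were chosen with earlier results of these data known. Named were all members, the MiT/TFE factors, the 3 highest and 2 lowest detected genes of each other lysosomal list, and leading proteases. Of these, 1 pair and some genes are not reported here. Sort1 and the overlapping genes were named after their values were seen. Alternatives were leaving out each replicate, DESeq2 1.42.0 size factors, other pseudocount, detection limits, filters and list means, rescaled TPM and the second quantification.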

Additional observations from a re-analysis of the deposited data

How the results depend on the processing

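All 12 called pairs kept their direction and call without any replicate, with pseudocount 0.1, on rescaled TPM and in the second quantification. Detected genes numbered 37 to 38 without each replicate, 38 at 0.1 TPM or on rescaled TPM and 34 at 5 TPM. Separated neighbours in the order were 13 to 18 without each replicate, and 18 without replicate 3. With 2 libraries a sign is shared more easily and the SD is less certain. These counts therefore do not compare directly with that from 3 libraries. With list means in place of medians, membrane proteins minus the other genes was 1.86, glycosaminoglycan minus sphingolipid hydrolases -0.92, the set minus detected protein-coding genes 2.45, minus proteases -1.31 and minus proton pump subunits -0.10 on the log2(TPM + 1) scale. With detected genes alone the set minus proteases was -2.74. With TPM in place of scaled counts, 1 gene (Grn) was more than 1.5-fold lower in replicate 2. The share of all genes past that bound on TPM is not given here. In the second quantification the median log2 ratio in replicate 3 was -0.10 in place of 0.02 and that in replicate 2 was -0.04 in place of -0.16, while on TPM the latter was -0.26. The cause was not tested. Genes whose replicates differed beyond counting noise numbered 34, 28 and 31 without replicates 1, 2 and 3 (53.2%, 44.3% and 44.2% of all genes) and 32 in the second quantification (72.8% of all genes). No paired analysis was possible because the libraries form 1 group. Depth limits Lyz1 most, and transcript shares of low genes rest on few counts.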
